A study of Mus musculus with 3 samples.

Results

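Adhesion G protein-coupled receptors were described in RNA from microvascular fragments of the mouse brain. The members were the genes of the count table whose symbol begins with Adgr, followed by 1 letter for the subfamily and a number; Adgra2, which has the same form of symbol, is left out by the rule, and the Celsr receptors, which belong to the same class under another symbol, are given apart. The rule used no measured value and gave 26 of the 56941 genes of the table. They fall into 8 subfamilies, with 2 members in ADGRA, 3 in ADGRB, 1 in ADGRD, 3 in ADGRE, 5 in ADGRF, 7 in ADGRG, 4 in ADGRL and 1 in ADGRV. The study holds 1 group, brain vessel fragments of adult wild-type C57BL/6J mice, as 3 replicates that the design text describes as coming from 3 mice. Brain tissue was broken up mechanically and by enzymes, the fragments were collected, and polyadenylated RNA was sequenced with a stranded kit. No untreated brain, sorted cell population or other control group stands beside them, and sex and exact age are not given in the labels, so every comparison is between genes or between the 3 libraries.

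Adhesion receptors combine a long extracellular region, built of modules found in adhesion and matrix proteins, with the membrane core of a G protein-coupled receptor. Most carry a GAIN domain that cuts the protein during its synthesis, and the stretch exposed by the cut can act as a tethered agonist that starts signalling through heterotrimeric G proteins. In brain the family is best known for synapse adhesion by latrophilins and BAI receptors and for control of myelination by GPR56. A few receptors of the family mark endothelium or macrophages.

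Total depth lay between 128428355 and 150449539 counts per library. Levels are CPM, counts scaled to a common library size with TMM factors. Detection required that all 3 libraries reach 1 CPM. The fragments carried vessel markers, as their label says: all 10 endothelial markers were detected, with summed levels of 14016 to 17076 CPM. All 8 pericyte markers (3704 to 3923 CPM) and all 6 smooth muscle markers (4852 to 5572 CPM) were detected as well. Cell types that the label does not name were also seen, with all 9 microglial markers (5402 to 7058 CPM) and all 8 astrocyte markers (1060 to 1949 CPM). All 7 choroid plexus and ependymal markers were detected too, with summed levels of 5052 to 8184 CPM. Most of these sums came from 1 gene, Ttr, at 6329, 7759 and 4759 CPM in replicates 1, 2 and 3. Neuronal markers summed to 95.3 to 118 CPM, with 7 of 8 detected, oligodendrocyte markers to 155 to 171 CPM, with 5 of 6 detected, and border macrophage and leukocyte markers to 21.8 to 37.0 CPM, with 4 of 10 detected. Anterior pituitary genes stood at 1435 CPM in replicate 2 against 20.7 and 18.2 CPM in replicates 1 and 3, and erythroid genes at 1088 CPM in replicate 1 against 134 and 62.5 CPM in replicates 2 and 3. Single genes made up most of some of these other sums as well. Stmn2 had 80.5, 70.0 and 87.6 CPM of the neuronal sums in replicates 1, 2 and 3. Slc1a2 had 1210, 1303 and 627 CPM of the astrocyte sums, and Gh 1233 CPM of the pituitary sum in replicate 2. In such a mixture of cell types, fewer cells of a type and less RNA per cell cannot be told apart.

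Of the 26 members, 16 were detected, a share of 61.5%. The background was 23.2% over all genes of the table and 61.6% over genes annotated as protein coding, so the members were detected about as often as coding genes in general. The members were very unequal: 5 of them, Adgrf5, Adgrl4, Adgrg1, Adgre5 and Adgrl2, had 100 CPM or more in every library. Of all 56941 genes, 19893 of them annotated as protein coding, 3.45% reached that level, and the share over coding genes alone was not taken. At the other end, 6 members had fewer than 20 counts over the 3 libraries together. Closest to the limit on its upper side was Adgrv1, with 1.25 CPM in its lowest library, and closest below it Adgrd1, with 0.953 CPM in its highest. All members together held 590255, 612582 and 740614 counts in replicates 1, 2 and 3.

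**Figure D1:**
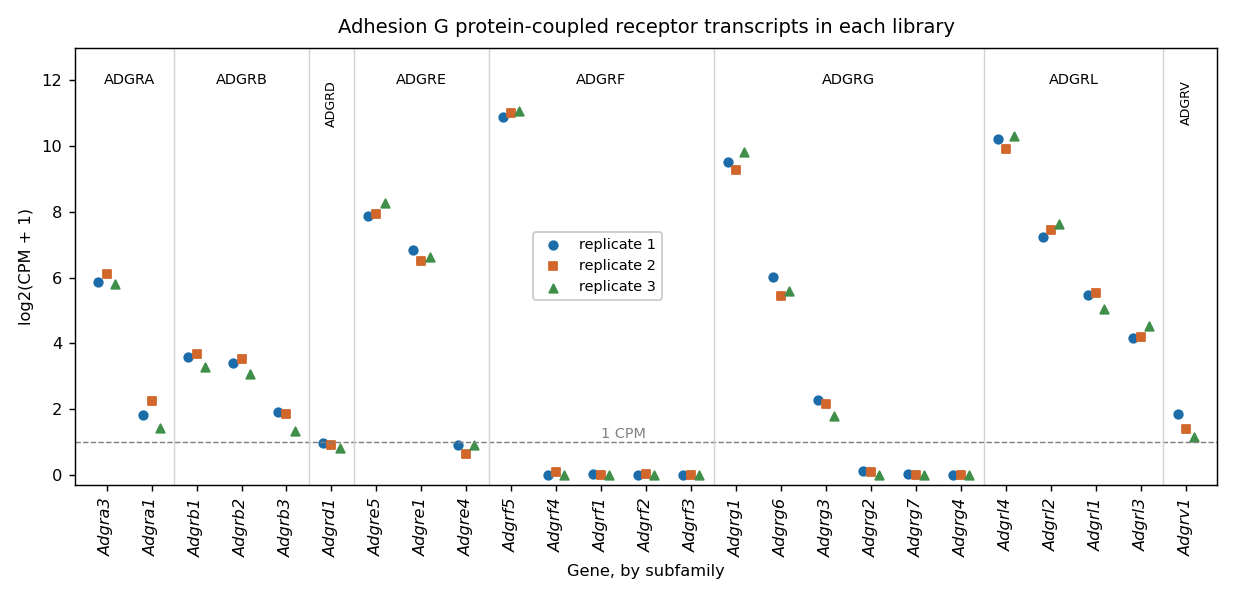
Level of 25 of the 26 members in each library, as log2(CPM + 1) on the vertical axis, with genes grouped by subfamily on the horizontal axis and 1 point for each replicate (not scaled by gene length). The dashed line marks 1 CPM, and Adgrf5, Adgrl4 and Adgrg1 stand at the top, while the other 4 ADGRF genes lie at or next to 0.

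Because long genes collect more counts, members were compared per length, as CPM per kilobase of annotated exon. On this scale the family was headed by Adgrl4 and Adgrf5. Adgrl4, also called ELTD1, is a receptor of endothelial cells known for its part in vessel sprouting. It had 1199, 965 and 1265 CPM in replicates 1, 2 and 3, that is 1143 ± 158 CPM (SD, n = 3) or 249 ± 34.5 CPM per kilobase. Among the 12826 detected genes with a known length it took rank 145 per length.

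Adgrf5, or GPR116, is a receptor of endothelium and of lung epithelium, where it takes part in surfactant control. It had 1889, 2084 and 2155 CPM, a mean of 2042 ± 138 CPM, and 227 ± 15.3 CPM per kilobase, which placed it at rank 160 of the same genes. Between its highest and lowest library Adgrf5 differed by a ratio of 1.14, the smallest among the 16 detected members. The levels of Adgrl4 and Adgrf5 per length did not differ beyond their spread: Adgrl4 was higher in replicates 1 and 3 and Adgrf5 in replicate 2, with a log2 ratio of 0.13 ± 0.24 (SD, n = 3). Without length scaling Adgrf5 stood first and Adgrl4 second. Together both genes held 63.6 ± 1.15% of the level per length summed over the family.

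The promoters of these genes are printed because the family's highest genes lie next to members of very different level. Adgrl4 is the coding gene next to Adgrl2, and Adgrf5 follows directly on Adgrf1, in the order of RefSeq genes. The windows are the 250 bases before each transcript start listed by RefSeq (build GRCm38.p6, while the counts were made on GRCm39), 5′ to 3′ on the gene's strand. Capitals mark each GGAA, the core of the sites bound by ETS factors, on either strand (read as GGAA or TTCC), with overlapping matches counted.
Adgrl4, chr3:151437632-151437881, plus strand: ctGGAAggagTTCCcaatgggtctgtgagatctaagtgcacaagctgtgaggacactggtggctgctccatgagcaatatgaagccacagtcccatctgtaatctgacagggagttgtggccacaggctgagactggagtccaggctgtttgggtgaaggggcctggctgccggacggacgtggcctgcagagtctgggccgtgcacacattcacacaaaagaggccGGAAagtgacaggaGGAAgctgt
Adgrf5, chr17:43360181-43360430, plus strand: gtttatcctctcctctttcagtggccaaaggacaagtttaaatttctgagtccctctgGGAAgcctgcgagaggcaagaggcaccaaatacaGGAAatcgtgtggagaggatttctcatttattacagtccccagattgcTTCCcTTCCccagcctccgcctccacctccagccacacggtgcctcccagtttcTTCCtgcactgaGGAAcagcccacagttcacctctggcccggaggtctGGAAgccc
Adgrf5, chr17:43389216-43389465, plus strand: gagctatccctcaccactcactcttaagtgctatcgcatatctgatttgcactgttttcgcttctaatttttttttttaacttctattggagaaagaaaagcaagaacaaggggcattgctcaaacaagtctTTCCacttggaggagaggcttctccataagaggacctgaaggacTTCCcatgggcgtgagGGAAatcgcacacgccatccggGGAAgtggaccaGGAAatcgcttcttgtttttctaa
Adgrf1, chr17:43270097-43270346, plus strand: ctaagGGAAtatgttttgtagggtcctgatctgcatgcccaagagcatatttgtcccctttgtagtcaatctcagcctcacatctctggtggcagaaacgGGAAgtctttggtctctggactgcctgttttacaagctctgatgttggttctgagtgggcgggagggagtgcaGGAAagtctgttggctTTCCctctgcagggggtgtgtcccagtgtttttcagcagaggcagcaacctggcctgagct
The Adgrl4 window held 4 GGAA matches, the Adgrf5 windows 7 and 5, and the Adgrf1 window 4. The Adgrl2 window, which is not printed, held 2. Of all 32851 windows in the RefSeq table, 93.4% held at least 1, so the presence of this short word does not set these genes apart. The longer word CCGGAA (either strand, and always also a GGAA match) occurred once in the Adgrl4 window. It was absent from both Adgrf5 windows and from the Adgrf1 and Adgrl2 windows, while 12.03% of all windows held it. A match is a string of letters and not a measured site. Windows for 20 of the 26 members were found in the table, 24 windows in all; 19 of these 24 held GGAA and 3 held CCGGAA.

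Adgrf5 was alone in its subfamily. Its direct neighbour Adgrf1, or GPR110, had 3, 0 and 0 counts in replicates 1, 2 and 3, against 245781, 291257 and 312784 counts for Adgrf5. Adgrf2 had 1, 2 and 0 counts, Adgrf3 0, 1 and 0, and Adgrf4 1, 10 and 0. A count of 0 allowed up to 0.0231, 0.0215 and 0.0207 CPM in replicates 1, 2 and 3 (3 counts per library, counting error only). Adgrf1, Adgrf2 and Adgrf3 lay at or under that limit in every library, whereas Adgrf4 reached 0.0715 CPM in replicate 2. Adgrf5 made up 99.99% of the level per length of ADGRF.

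All 4 genes of the latrophilin subfamily, ADGRL, were detected. Besides Adgrl4 it holds the latrophilins proper, which bind teneurins and FLRT proteins across cell contacts and are known as receptors of a spider toxin. Adgrl2 had 151, 174 and 196 CPM, a mean of 174 ± 22.5 CPM and 12.2 ± 1.59 CPM per kilobase. Adgrl4 stood 20.4 times above this neighbour per kilobase of merged exons, with ratios of 17.2 to 24.6 in the single libraries. The size of this step depended on the length taken. Per kilobase of the longest coding transcript, Adgrl4 had 292, 235 and 308 CPM and Adgrl2 24.9, 28.7 and 32.4 in replicates 1 to 3. Adgrl1 followed at 43.3, 45.5 and 32.2 CPM (4.70 ± 0.831 CPM per kilobase) and Adgrl3 at 16.8, 17.3 and 22.1 CPM (1.06 ± 0.164 CPM per kilobase). Adgrl2 exceeded Adgrl3 in 3 of 3 libraries, by ratios of 11.1 to 12.6. Adgrl2 was the highest of the 3 latrophilins in each library. On the other strand, 15.6% of the exonic length of Adgrl1 and 8.91% of that of Adgrl3 lie under annotated noncoding genes; of these, Gm10644 had 0.219 ± 0.116 CPM and Gm16054 0.174 ± 0.149 CPM.

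The ADGRG genes were led by Adgrg1, which encodes GPR56, a receptor known for cortical development and myelination that microglia also express. It had 733, 617 and 898 CPM, a mean of 749 ± 141 CPM and 138 ± 26.0 CPM per kilobase. Adgrg1 lay below Adgrl4 per length in 3 of 3 libraries, by a ratio of 1.81 (1.67 to 1.93). Its neighbour in the genome was low: Adgrg3, or GPR97, a receptor of granulocytes, had 3.91, 3.45 and 2.46 CPM. Per kilobase of merged exons, Adgrg1 stood 228 to 465 times above Adgrg3 in the single libraries. This ratio too depended on the length. Per kilobase of the longest coding transcript, Adgrg1 had 203, 171 and 248 CPM and Adgrg3 1.60, 1.41 and 1.01 in replicates 1 to 3.

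Adgrg6, or GPR126, is required for Schwann cells to form myelin in peripheral nerve. It had 64.1, 42.4 and 47.4 CPM, a mean of 51.3 ± 11.4 CPM and 4.20 ± 0.928 CPM per kilobase, highest in replicate 1. Per kilobase of merged exons Adgrg6 could not be separated from Adgrl1, which was higher in 1 of 3 libraries. Adgrg6 was higher in 3 of 3 libraries per kilobase of coding sequence, by ratios of 1.18 to 1.88, and of the longest coding transcript, by 1.17 to 1.86. Further genes of the subfamily were at or near 0: Adgrg2, best known from the epididymis, had 10, 9 and 1 counts, Adgrg7 3, 0 and 0, and Adgrg4 no count in any library.

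Among the ADGRE receptors, which carry EGF-like modules and are best known from blood and tissue leukocytes, Adgre5 and Adgre1 were detected. Adgre5, or CD97, which binds the complement regulator CD55, had 233, 244 and 307 CPM, a mean of 261 ± 40.3 CPM and 69.6 ± 10.7 CPM per kilobase. Exons of Ddx39a, which had 32.7 ± 3.02 CPM, lie on the other strand over 23.8% of the exonic length of Adgre5; the strand setting of the counting is not given, so reads from there cannot be assigned with certainty. Adgre1, the gene of the macrophage antigen F4/80, had 114, 89.6 and 99.1 CPM, a mean of 101 ± 12.2 CPM and 31.1 ± 3.76 CPM per kilobase. Adgre5 exceeded Adgre1 per length in 3 of 3 libraries, by ratios of 1.76 to 2.67. Adgre4, the third of the subfamily, had 0.899, 0.572 and 0.875 CPM and was not detected.

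Microglia express Adgre1 and Adgrg1, so their marker list is given beside these genes. Its mean log2 deviation was 0.16, -0.20 and 0.05 in replicates 1, 2 and 3; that of Adgre1 was 0.18, -0.16 and -0.02 and that of Adgrg1 -0.01, -0.26 and 0.28. All 3 were lowest in replicate 2, as were Adgrl4 and Adgrg6. These 4 receptor genes, of the 16 detected members, compare with 30.8% of all detected genes that were lowest there. The smooth muscle and fibroblast lists were also lowest in replicate 2, at -0.13 and -0.19. The border macrophage and leukocyte list, in which 4 of 10 markers were detected, deviated by 0.23, -0.26 and 0.03. The part of cell numbers in these values was not tested.

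The BAI genes, ADGRB, were low, with Adgrb1 and Adgrb2 at like levels and Adgrb3 below both. BAI1, encoded by Adgrb1, takes part in the uptake of dying cells and in synapse formation; Adgrb1 had 11.1, 11.9 and 8.71 CPM (1.46 ± 0.228 CPM per kilobase). Adgrb2 had 9.60, 10.7 and 7.41 CPM (1.42 ± 0.255 CPM per kilobase), and the difference between them changed sign between libraries. Adgrb3, the receptor of C1q-like synaptic proteins, had 2.74, 2.60 and 1.54 CPM and 0.124 ± 0.0356 CPM per kilobase. Its annotated exons add up to 18559 bases against 4566 coding bases, so its level per length depends on the length taken.

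Of the ADGRA genes, Adgra3 (GPR125, linked to planar cell polarity signalling) had 58.0, 67.9 and 55.1 CPM, a mean of 60.3 ± 6.69 CPM and 7.44 ± 0.825 CPM per kilobase. Adgra1 (GPR123), known mainly from the central nervous system, had 2.54, 3.74 and 1.69 CPM (0.493 ± 0.192 CPM per kilobase). That difference of 2.22 times between its libraries was the widest of any detected member. Adgrv1 encodes the giant receptor VLGR1, whose loss causes deafness through the hair cells of the inner ear; it had 2.64, 1.64 and 1.25 CPM and, with 24878 exonic bases, the lowest detected level per length, 0.0740 ± 0.0288 CPM per kilobase. Adgrd1 (GPR133) stayed below the limit at 0.953, 0.880 and 0.751 CPM.

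Ordered by level per length, the 16 detected members ran from Adgrl4 through Adgrf5, Adgrg1, Adgre5, Adgre1, Adgrl2, Adgra3, Adgrl1, Adgrg6, Adgrb1, Adgrb2, Adgrl3, Adgra1, Adgrg3 and Adgrb3 to Adgrv1. Of the 15 neighbouring pairs in this order, 10 had the same sign in every library and a mean log2 difference larger than its SD. Of these 10, 9 kept their direction in every library without length scaling, with coding length and with the longest coding transcript. Among the 9, Adgrf5 over Adgrg1 fell within its spread with the longest transcript, at 1.17 on average (1.02 to 1.43). The remaining pair was Adgre1 over Adgrl2, at a ratio of 2.55. It became 1.09 with the longest transcript and 0.929 with coding length, with Adgre1 higher in 1 of 3 libraries in both. Without length scaling it was 0.582, with Adgrl2 higher in all 3. The other 5 pairs did not differ beyond their spread: Adgrl4 and Adgrf5, Adgrl1 and Adgrg6, Adgrb1 and Adgrb2, Adgrb2 and Adgrl3, and Adgra1 and Adgrg3. That too depended on the length. Adgrl3 exceeded Adgrb2 in 3 of 3 libraries 2.04 times without length scaling, 2.04 times with coding length and 1.58 times with the longest transcript, Adgrf5 exceeded Adgrl4 1.80 times without length scaling, and Adgrg3 exceeded Adgra1 2.49 times with the longest transcript. Adgrb1 and Adgrb2 stayed within 1.15 times of each other on average, with Adgrb1 higher in all libraries without length scaling and with coding length and Adgrb2 with the longest transcript. An exact sign-flip test over 3 libraries cannot go below p = 0.25, so no test was made of single pairs. The median of the detected members was 4.45 CPM per kilobase, against 5.88 for all detected genes. Adgre5 lay at percentile 94.9 and Adgrg1 at 97.7 of detected genes, while Adgrb3 and Adgrv1 lay at 0.179 and 0.0312.

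**Figure D2:**
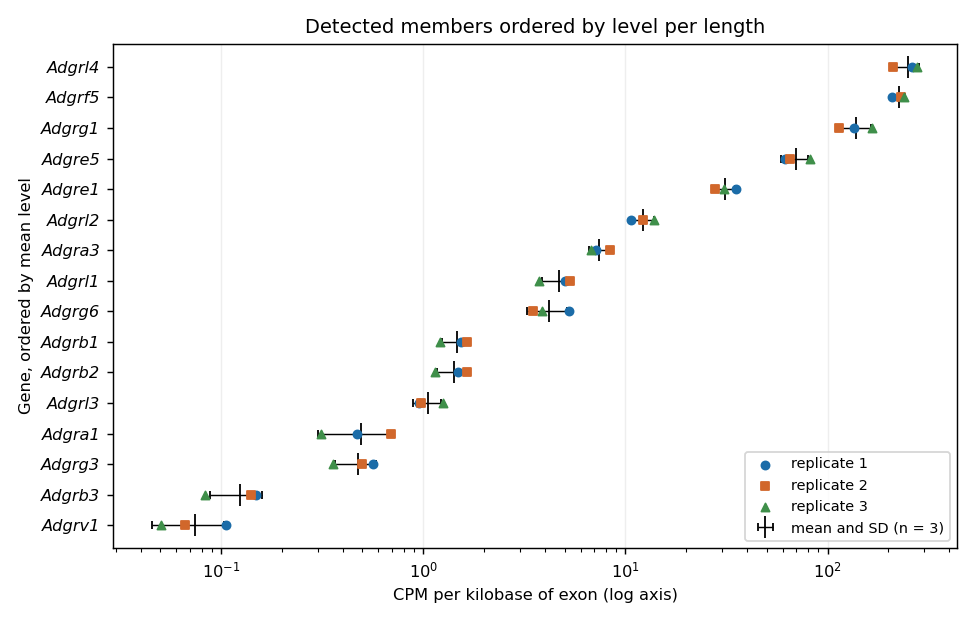
Detected members in order of mean CPM per kilobase of exon (horizontal log axis), with 1 point for each replicate and a black tick and bar for the mean and SD (n = 3). The order falls from Adgrl4 at 249 to Adgrv1 at 0.0740, and the points of neighbours such as Adgrb1 and Adgrb2 overlap.

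Subfamilies were compared by their share of the level per length summed over all 26 members. ADGRL held 35.6 ± 2.12% (37.7%, 33.5% and 35.7% in replicates 1, 2 and 3) and ADGRF 30.4 ± 2.98% (28.4%, 33.8% and 28.9%). ADGRL was ahead in replicates 1 and 3 and ADGRF in replicate 2, so on this scale these subfamilies were not separated beyond their spread. With the length of the longest coding transcript, ADGRL exceeded ADGRF in 3 of 3 libraries, by ratios of 1.11 to 1.47. Without length scaling the order turned, with 43.8 ± 3.25% for ADGRF and 29.4 ± 1.86% for ADGRL.

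ADGRG held 19.0 ± 1.66% and ADGRE 13.5 ± 0.238%, and both kept their places in all libraries on this scale: ADGRF exceeded ADGRG 1.41 to 1.96 times and ADGRG exceeded ADGRE 1.27 to 1.51 times. A wide step followed, since ADGRE stood 10.2 to 15.9 times above ADGRA, at 1.07 ± 0.235%, and ADGRA 2.40 to 2.92 times above ADGRB, at 0.409 ± 0.105%. The step from ADGRE to ADGRA was 4.67 to 7.17 times without length scaling, 6.79 to 10.7 times with coding length and 6.85 to 10.5 times with the longest coding transcript. With that transcript, ADGRF exceeded ADGRG in 2 of 3 libraries. The single genes of ADGRD and ADGRV held 0.0140 ± 0.00264% and 0.0100 ± 0.00416%, an order that turned without length scaling. These shares rested on few genes. Adgrl4 made up 93.2% of ADGRL, Adgrg1 96.6% of ADGRG, Adgra3 93.9% of ADGRA and Adgre5 68.8% of ADGRE, whereas Adgrb1 made up 48.7% of ADGRB. The 4 highest members, Adgrl4, Adgrf5, Adgrg1 and Adgre5, held 91.2 ± 0.925% of the family's level per length.

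**Figure D3:**
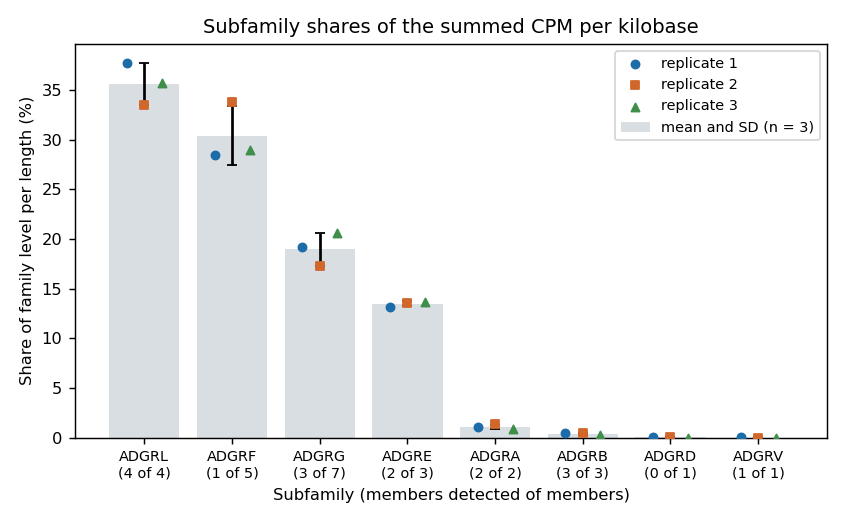
Share of each subfamily in the summed CPM per kilobase of all 26 members (vertical axis, percent), with grey bars and black error bars for mean and SD (n = 3) and 1 point for each replicate; the labels give members detected of members. ADGRL, ADGRF, ADGRG and ADGRE lie far above the other 4 subfamilies, and the points of ADGRL and ADGRF overlap.

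Whether members differed between the libraries more than other genes of like abundance was tested over the whole table with edgeR's quasi-likelihood model. Of the 26 members, 19 passed its filter on low counts, and 0 of these 19 were called at an adjusted p under 0.05, against 0.0833% of all genes tested. The lowest adjusted p by edgeR's test was 0.953, for Adgrg6. Its unadjusted p of 0.0457 was the only one under 0.05 among the 19 members, where 5.18% of all genes tested had such a value. DESeq2 marked 0 of 25 members as dispersion outliers, beside 137 of all genes with a count in any library. On simulated counts of these libraries, with a mean of at least 100 counts, the test recovered 40% of shifts of 2-fold in 1 library. It recovered 91% of shifts of 4-fold, so differences of about 2-fold could be missed. Larger measured differences were also left uncalled. The pituitary gene Tshb, at 0.284, 2.55 and 0.372 CPM in replicates 1, 2 and 3, had an adjusted p of 0.324 by edgeR's test. By the same test the neuronal gene Snap25, at 15.3, 6.57 and 4.08 CPM, had 0.374. Called marker genes were 4 of the anterior pituitary and 5 erythroid ones. Whether the simulated recovery holds for the measured members was not tested. The detected members' own ratios between highest and lowest library ranged from 1.14 to 2.22. Their median was 1.39, against 1.20 over all detected genes, a comparison that does not match genes by abundance.

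The direction of the small differences was not the same over the family. Of the 16 detected members, 8 were lowest in replicate 3, against 30.6% of all detected genes: Adgra1, Adgra3, Adgrb1, Adgrb2, Adgrb3, Adgrg3, Adgrl1 and Adgrv1. Their log2 deviations there ran from -0.40 for Adgra1 to -0.12 for Adgra3. Another 6 members, or 37.5% of the 16, were highest in replicate 3, about the same share as the 36.8% of all detected genes. They were Adgre5, Adgrf5, Adgrg1, Adgrl2, Adgrl3 and Adgrl4, at 0.08 to 0.28. All 3 BAI genes and both ADGRA genes were among the first set.

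The latrophilins were split, with Adgrl1 at 0.12, 0.19 and -0.30 in replicates 1, 2 and 3 and Adgrl2 at -0.19, 0.01 and 0.18. Among the marker lists, astrocyte genes deviated by 0.11, 0.24 and -0.35 and choroid plexus and ependymal genes by 0.24, 0.10 and -0.34, while neuronal genes deviated by 0.20, -0.10 and -0.10 and endothelial genes by -0.17, 0.06 and 0.10. The neuronal markers differed among themselves. Snap25 fell from 15.3 to 6.57 and 4.08 CPM, whereas Stmn2, at 80.5, 70.0 and 87.6 CPM, was highest in replicate 3. The part of the listed cell types in the values of the receptors was not tested.

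**Figure D4:**
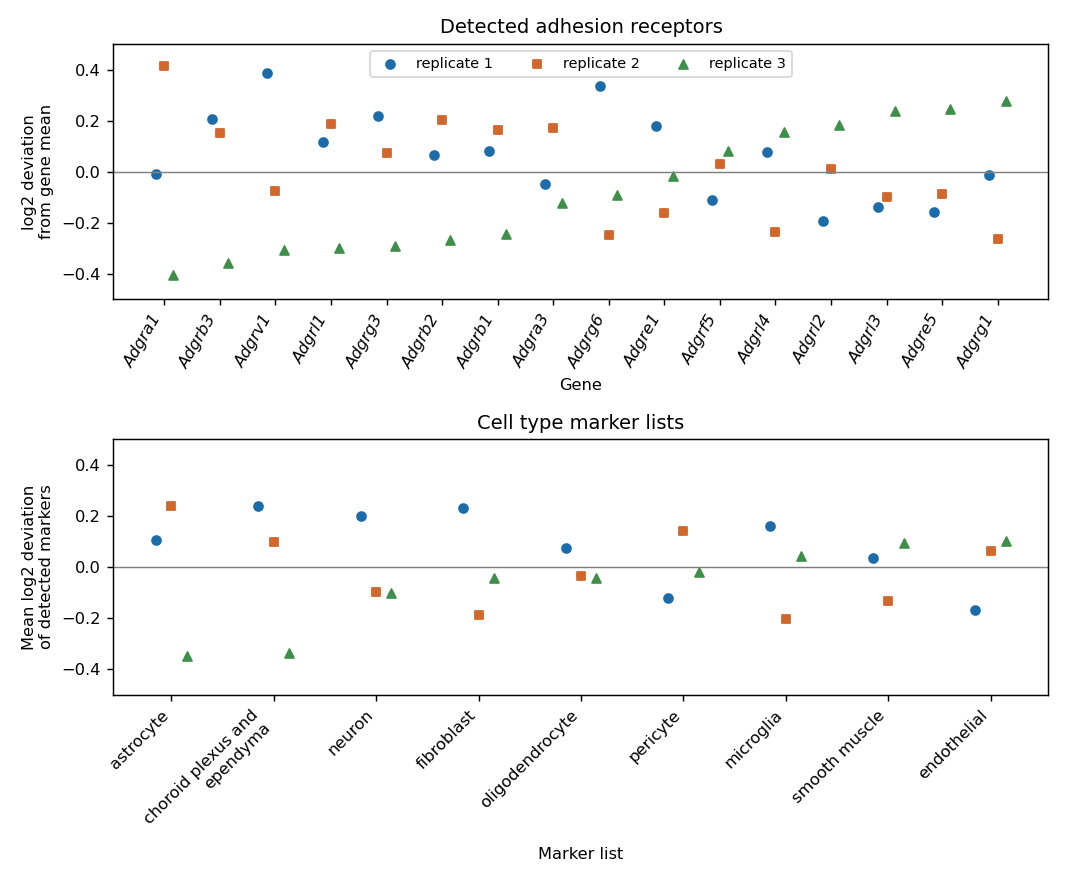
Upper plot, log2 deviation of each detected member from its own mean (vertical axis) in each replicate, ordered by the value in replicate 3; lower plot, the mean deviation of the detected genes of 9 cell type marker lists. Adgra1 is lowest in replicate 3 at -0.40 and Adgrg1 highest at 0.28, and in the lower plot the astrocyte list lies lowest there at -0.35.

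Known binding partners and effectors of the receptors, with the Celsr genes, were taken from 12 lists holding 50 genes, of which 37 were detected. Of the 50 genes, 46 were tested for variability and 0 passed edgeR's test. Over the whole table, 61.6% of genes annotated as protein coding were detected, and 0.0833% of all genes tested passed. Of the 7 latrophilin ligands, 3 were detected. Per length the highest were Flrt2 at 12.2 ± 2.07 CPM per kilobase and the teneurin gene Tenm4 at 0.770 ± 0.201, and the lowest was Tenm1, another teneurin gene, at 0.00289 ± 0.00199. This list was low in replicate 3, with mean deviations of 0.23, 0.18 and -0.41.

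Of the 7 BAI ligands, 1 was detected, the Nogo receptor relative Rtn4rl1 at 15.9 ± 0.585 CPM per kilobase. The next was Rtn4r at 0.224 ± 0.0370 and the lowest C1ql4 at 0.00653 ± 0.00276 CPM per kilobase, and all 4 C1q-like ligands of BAI3 were under the detection limit. Both ligands of GPR56 were detected: Tgm2, a crosslinking enzyme of the matrix, had 812, 622 and 983 CPM, and Col3a1, a fibrillar collagen, 76.3, 48.5 and 56.4 CPM. Like Adgrg1, Tgm2 was lowest in replicate 2 and highest in replicate 3, an order that Adgrl4 had as well. Col3a1 was also lowest in replicate 2 but highest in replicate 1. Whether ligand and receptor levels go together was not tested.

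All 4 ligands of GPR126 were detected, with the basement membrane collagens Col4a1 at 199 ± 36.4 and Col4a2 at 173 ± 27.7 CPM per kilobase, and the laminin chain gene Lama2 lowest at 2.23 ± 0.142. On the same scale Adgrg6 itself had 4.20 CPM per kilobase. For CD97 the ligand genes Thy1 and Cd55 had 4.35 ± 0.284 and 1.69 ± 0.307 CPM per kilobase, beside 69.6 for Adgre5. The GPR116 ligands were also far below their receptor, which had 227 CPM per kilobase. Fndc4 had 3.85 ± 0.660, and Sftpd, the surfactant protein D gene, had 0, 2 and 0 counts in replicates 1, 2 and 3. Ptk7, the partner of GPR133, had 1.15 ± 0.245 CPM per kilobase.

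Downstream of the receptors, all 3 engulfment effectors of BAI1 were detected, from Rac1 at 126 ± 12.7 CPM per kilobase and Dock1 at 15.9 ± 0.817 to Elmo1 at 9.48 ± 1.11. The 4 scaffold genes of BAI1 and GPR125 were detected as well, with Dlg1 at 8.80 ± 0.703 and Magi3 at 6.84 ± 0.614 CPM per kilobase highest and Magi2 at 0.577 ± 0.0417 lowest. Of the partners of VLGR1 in hair cells, Whrn had 2.45 ± 0.328 CPM per kilobase and Pdzd7 1.38 ± 0.152, and both were detected. Among the G protein alpha subunits, 12 of 13 were detected, led per length by the inhibitory Gnai2 at 370.0 ± 48.6 and the stimulatory Gnas at 156 ± 10.7 CPM per kilobase. Gna12 and Gna13, whose products form a class of their own among the alpha subunits, had 50.2 ± 0.764 and 14.7 ± 1.73 CPM per kilobase. Lowest was the olfactory subunit gene Gnal at 0.181 ± 0.0263, and Gna14 was the 1 subunit not detected.

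The Celsr genes, adhesion receptors with cadherin repeats that set planar cell polarity and whose symbols do not match the rule, spanned a wide range. Celsr2 had 11.3 ± 1.63 CPM, Celsr1 7.78 ± 0.788 CPM and Celsr3 0.159 ± 0.106 CPM; of the 3, 2 were detected. Per length this came to 0.985 ± 0.142, 0.707 ± 0.0716 and 0.0132 ± 0.00882 CPM per kilobase. Their detected members deviated by 0.13, 0.05 and -0.18 in replicates 1, 2 and 3, with replicate 3 lowest.

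**Figure D5:**
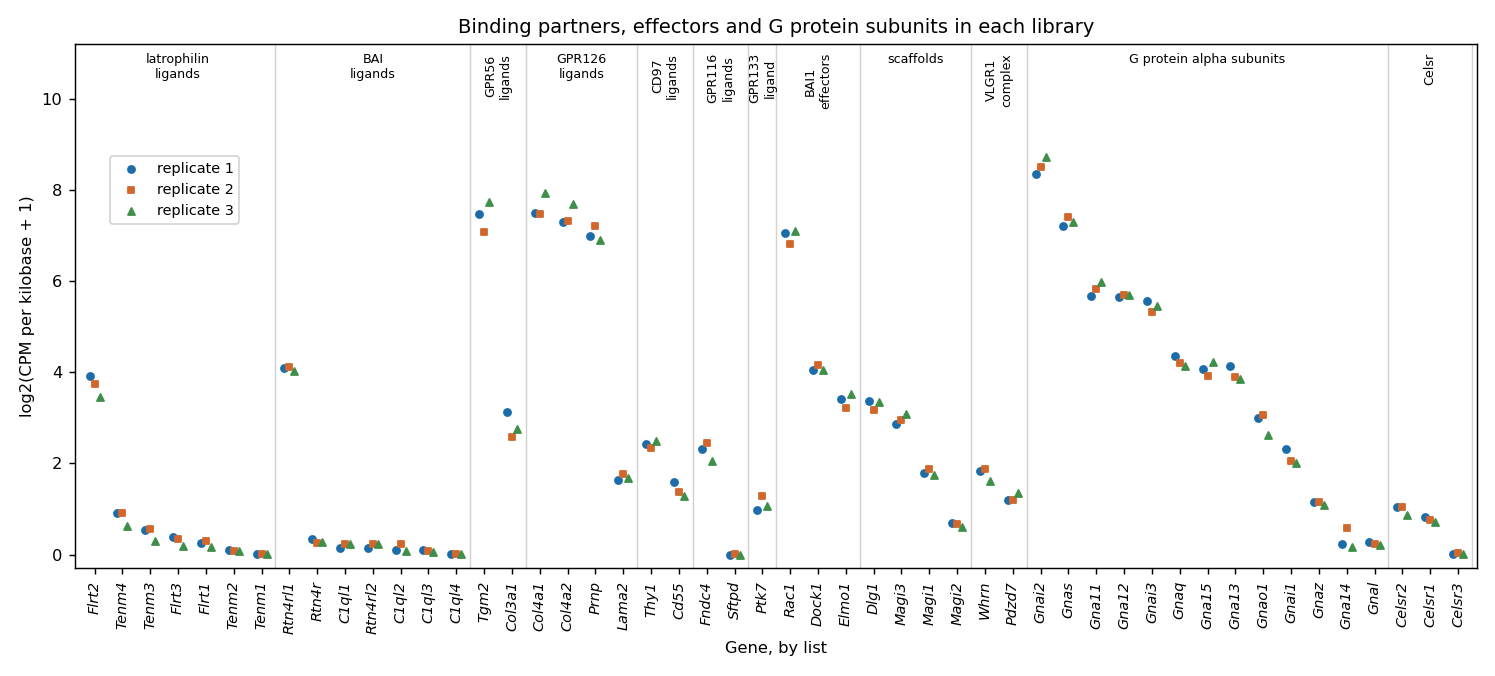
Level of the 50 partner, effector, G protein and Celsr genes in each library, as log2(CPM per kilobase + 1) on the vertical axis, grouped by list on the horizontal axis, with 1 point for each replicate. Gnai2 stands highest at 370.0 CPM per kilobase, followed by Col4a1 at 199, and the C1q-like genes lie next to 0.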

How the data were processed

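The authors deposited raw gene counts, as whole numbers, for the 3 libraries, each made from 400 ng of total RNA and read as pairs of 150 bases per the labels' protocols. Per the submitters' processing notes the build was GRCm39 and the tools were Subread 1.4.6-p5 with featureCounts; their roles, the annotation, the strand setting and the treatment of reads with several positions were not given in the sources used here. All columns were mapped to samples by library name, and pairs of libraries differed far beyond sampling noise (mean chi-square per gene of 136 to 174).

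CPM used TMM effective library sizes (edgeR 4.0.16, R 4.3.3). Detection was 1 CPM in every library. Gene lengths were the merged exons of GENCODE M21 (build GRCm38, matched by symbol, all 26 members), an annotation of another build than the counts. Variability was tested over 18003 genes kept by filterByExpr with an intercept-only quasi-likelihood fit and an upper-tail F test of each gene's dispersion against the trend, adjusted by Benjamini-Hochberg at 0.05, and tested on simulated data. Deviations are on the log2(CPM + 1) scale, from each gene's mean. In a scan of GENCODE transcripts for shared stretches of 50 bases, no member matched another member. It met other genes for 6 members (Adgrb1, Adgrb3, Adgrf5, Adgrg3, Adgrl3, Adgrv1), whose counts may hold or have lost some ambiguous reads. Alternatives were DESeq2 1.42.0 size factors and dispersions, plain totals, other limits, lengths and pseudocounts, and leaving out each library. The members and lists were chosen with earlier results of these data known. The members are named, apart from 1 that is not reported here, as are 2 genes of the partner lists, which were left out of their lists; of each partner list, the highest 2 and the lowest per length are named, with any called by the test. Gna12, Gna13 and Gna14 were named after their values were seen. P-values measure whether a gene's spread between these samples exceeds the trend of genes of like abundance.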

Additional observations from a re-analysis of the deposited data

How the results depend on the processing

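The count of detected members was 16 with DESeq2 size factors, with plain totals and without any 1 replicate, and 18 at 0.5 CPM or 19 at 10 counts in every library. No alternative called a member as varying; without 1 replicate the count of members stayed at 0, while over all genes the test called 15, or 0 with a robust prior, 173 without the filter, 7, 80 and 33 without replicates 1, 2 and 3, and DESeq2 marked 137. Of the 16 members, 5 kept their place in the order without length scaling, 7 with coding length and 10 with the longest coding transcript (chosen after seeing the data); leaving out a replicate left 12 to 16 in place, and Adgrl4, Adgrf5, Adgrg1 and Adgre5 stayed the first 4 genes in all of these.

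Shares moved most with the length used. Without length scaling ADGRA had 1.36%, ADGRD 0.0186%, ADGRE 7.76%, ADGRF 43.8%, ADGRG 17.1%, ADGRL 29.4% and ADGRV 0.0400%. With coding length ADGRB had 0.294%, ADGRD 0.0199%, ADGRE 8.84% and ADGRG 23.4%. With the longest coding transcript ADGRA had 1.57%, ADGRD 0.0186%, ADGRE 13.1%, ADGRF 26.5% and ADGRG 23.7%. Without 1 replicate ADGRL ranged from 34.6% to 36.7%, ADGRF from 28.7% to 31.4%, ADGRG from 18.2% to 19.9%, ADGRE from 13.4% to 13.6%, ADGRA from 0.947% to 1.18%, ADGRB from 0.362% to 0.466%, ADGRD from 0.0132% to 0.0155% and ADGRV from 0.00785% to 0.0120%. With a pseudocount of 0.5 the levels of the 10 undetected members, and of no detected one, moved by more than their SD. No paired analysis was possible because the study has 1 group. Members with few counts are limited by depth, and 3 libraries leave small differences undetected.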
